A study of Mus musculus with 2 samples.

Results

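Fibroblast nuclei were picked out of 2 single-nucleus RNA libraries of inflamed mouse colon by what they expressed. A nucleus had to hold between 400 and 5000 detected genes and at most 10% of its unique molecular identifiers (UMIs, each 1 captured RNA molecule) from mitochondrial genes. It then had to hold at least 4 of the 11 stromal genes Pdgfra, Col6a3, Bmp5, Lama2, Tenm3, Pappa, Col14a1, Abca8a, Dcn, Lum and Col3a1, to carry at least 0.3% of its UMIs on them, and to have more UMIs on them than on the muscle genes Myh11, Actg2 and Synpo2. Of 9586 nuclei that passed the first filter, 215 met this rule. They were 151 of 4884 nuclei in the WT library and 64 of 4702 in the HIF-1α KO library.

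Fibroblasts make and remodel the connective tissue of the gut wall. In the colon they also act as a signaling niche. Those beneath the epithelium, high in the PDGF receptor encoded by Pdgfra, send BMP and Wnt ligands and the ERBB ligand neuregulin to the crypts, while those around the crypt base and in the submucosa send BMP antagonists and R-spondins. During colitis a share of fibroblasts takes up an inflammatory program of cytokine receptors, chemokines, prostaglandin synthesis and matrix-degrading enzymes, and lasting injury is linked to collagen deposition and fibrosis.

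Both groups were mice 8 to 12 weeks old that received dextran sodium sulfate (DSS, which injures the colonic epithelium) at 2% in the drinking water for 3 days, then plain water for 4 days, in 4 such rounds up to day 28. HIF-1α KO animals (Ncr1cre+ Hif-1αfl+/fl+) carried a loxP-flanked gene for the oxygen-sensing transcription factor HIF-1α and a Cre recombinase under the Ncr1 (NKp46) promoter, which is active in NK cells, ILC1s and NKp46+ ILC3s. WT animals were littermates. Nuclei of 3 animals were pooled per genotype into 1 library, no untreated colon was analysed here, and the comparison of genotypes therefore has no replicate and no test. Values are given as UMIs summed over the fibroblast nuclei of a library and as counts per 1000000 of those UMIs (CPM). Intervals are exact 95% intervals that cover counting error only. They do not cover differences between animals, between libraries or between nuclei, and UMIs of 1 nucleus are not independent of each other.

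The deletion is not placed in fibroblasts by its design, and the Ncr1 and Hif1a counts of the fibroblast nuclei are given first. Ncr1 had 0 UMIs in the fibroblast nuclei of either library, which allows up to 7.04 CPM in WT and 10.9 CPM in HIF-1α KO. All other nuclei held 1 Ncr1 UMI in WT and 0 in HIF-1α KO. The libraries hardly detect the gene in any nuclei, so its count cannot show where the Cre was active. Hif1a had 80 UMIs (188 CPM) in WT and 49 UMIs (179 CPM) in HIF-1α KO, a log2 ratio of -0.07 with an interval from -0.62 to 0.46. The libraries count the 3′ end of transcripts, and whether that end lies within the floxed part is not given in the sources used here, so the Hif1a count is no check of the deletion.

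The HIF-1α KO library was the deeper one, in fibroblast nuclei as in the rest. The median fibroblast nucleus had 2297 UMIs and 1430 genes in WT against 3690.5 UMIs and 2039.5 genes in HIF-1α KO. The summed depth went the other way because fewer nuclei were found, with 426238 fibroblast UMIs in WT and 274483 in HIF-1α KO. Mitochondrial UMIs in the median fibroblast nucleus were 0.080% in WT and 0.200% in HIF-1α KO, and the nuclear RNA Malat1 was at 50587 and 39645 CPM, and the part of these differences in the results below was not tested. The 2 libraries shared 3 cell barcodes, none of which belonged to a fibroblast nucleus. Transcripts of other cells were present in these nuclei. The 18-gene epithelial list came to 3308 CPM in WT and 4164 CPM in HIF-1α KO fibroblast nuclei against 9227 and 11018 CPM in the other nuclei, and the median level of 8 abundant epithelial transcripts in fibroblast nuclei was 31.1% and 41.8% of that in the other nuclei. This share was used as an estimate of free RNA, with the other nuclei in place of empty droplets. In 44 of 151 and 22 of 64 fibroblast nuclei the lists of other cells (smooth muscle and pericytes left aside) held more UMIs than the 11 rule genes. These nuclei are called mixed here, and no doublet caller was run. Their part in the gene ratios between libraries, the list medians and the comparison of position lists was measured by leaving them out. The clusters and the shares of fibroblast nuclei were not repeated without them.

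The rule genes describe how the nuclei were chosen and are no finding. Of the 11, 9 had at least 50 UMIs over both libraries and each of these 9 was more than 2-fold above the other nuclei in both. Pdgfra, the receptor that marks the lineage, stood at 521 CPM in WT and 401 CPM in HIF-1α KO fibroblast nuclei against 6.78 and 1.93 CPM in the others. Dcn, which encodes the proteoglycan decorin, stood at 594 and 495 CPM against 22.9 and 8.06 CPM. Pdgfra was detected in 77 of 151 and 33 of 64 members and Dcn in 61 and 30, so neither gene marked every member. The median fibroblast nucleus gave 18 UMIs to the rule genes in WT and 31.5 in HIF-1α KO, or 0.752% and 0.740% of its UMIs, so the label rests on few molecules per nucleus. At the edge of the rule, 45 WT and 14 HIF-1α KO members had exactly 4 of the genes, while 28 and 17 nuclei missed the rule with 3. Muscle genes were low but not absent, and 101 of 151 and 33 of 64 members had no UMI of the 3 muscle genes. Smooth muscle actin (Acta2), which marks myofibroblasts, had 25 UMIs in 17 WT members and 20 UMIs in 7 HIF-1α KO members, so most members had no UMI of it.

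**Figure D1:**
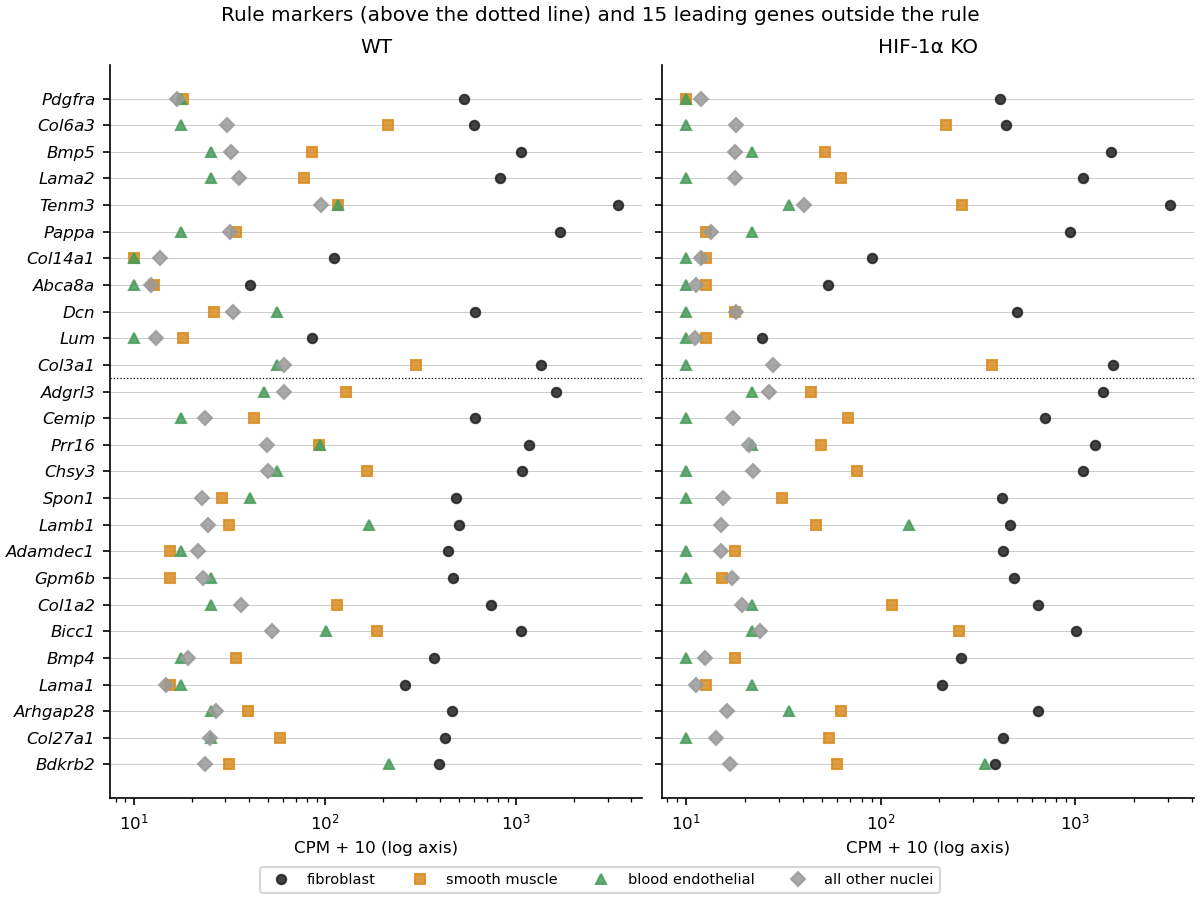
Levels of the 11 rule genes and of 15 leading genes outside the rule in CPM + 10 on a log axis, for fibroblast (black circles), smooth muscle (orange squares), blood endothelial (green triangles) and all other nuclei (gray diamonds, smooth muscle and endothelial nuclei included) of each library. Fibroblast nuclei lie to the right of the other kinds for each gene, with Bdkrb2 in HIF-1α KO the closest case at 375 CPM in fibroblast against 333 CPM in endothelial nuclei.

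Beyond the rule, the nuclei shared a wide program of matrix, adhesion and guidance genes. Of 3174 genes with at least 50 UMIs in fibroblast nuclei, 568 (17.9%) were at least 2-fold above the other nuclei in both libraries. Every collagen gene with enough UMIs (16 of 16) was among them, as were 22 of 22 matrix glycoprotein and proteoglycan genes, 16 of 16 matrix enzymes and inhibitors and 14 of 18 growth factors. By contrast 9 of 16 epithelial genes lay more than 2-fold below the other nuclei. The nuclei were chosen by stromal genes, so this is a description of what goes with them and not a test.

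The gene with the highest ratio outside the rule was Adgrl3, an adhesion receptor of the latrophilin family, at 1609 CPM in WT and 1384 CPM in HIF-1α KO fibroblast nuclei against 50.9 and 16.8 CPM elsewhere. Cemip, which takes part in hyaluronan breakdown, stood at 601 and 692 CPM against 13.6 and 7.37 CPM, but 88.9% of its HIF-1α KO UMIs sat in 1 nucleus. Adamdec1, a metalloprotease-like gene of the gut stroma, stood at 427 and 415 CPM against 11.5 and 5.10 CPM and was spread over 60 and 36 nuclei. The other leading genes were Prr16, the chondroitin synthase Chsy3, the matrix protein Spon1, the laminin chains Lamb1 and Lama1, the collagens Col1a2 and Col27a1, Gpm6b, Bicc1, Bmp4, Arhgap28 and the bradykinin receptor Bdkrb2. All 15 were also more than 2-fold above smooth muscle nuclei in both libraries, and all 15 stayed more than 2-fold above the other nuclei when the member with the most UMIs of the gene was left out of each library. Against smooth muscle, the nearest stromal neighbor, 342 of the 3174 genes (10.8%) were at least 2-fold higher and 77 (2.43%) at least 2-fold lower in both libraries.

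Fibroblast nuclei made up a smaller share of the HIF-1α KO library. They were 3.09% (2.62 to 3.62) of filtered nuclei in WT and 1.36% (1.05 to 1.73) in HIF-1α KO, a log2 ratio of -1.18 with an interval from -1.63 to -0.75. Smooth muscle nuclei also took a smaller share there, 1.94% against 2.85%, and so did blood endothelial nuclei, 0.404% against 1.04%. Among fibroblast and smooth muscle nuclei together, fibroblasts were 151 of 290 in WT (46.2% to 57.9%) and 64 of 155 in HIF-1α KO (33.5% to 49.5%), and the log2 ratio was -0.33. The 2 intervals overlap. The study describes the other direction, a relative shift to fibroblasts and away from smooth muscle among its KO mesenchymal cells. It defined these cells by clustering and not by this rule, and why the directions differ was not tested. On KO colon sections the study also reports more area stained for the receptor encoded by Pdgfra, a thicker wall and more collagen. A share of nuclei depends on how many nuclei of every kind each pool released, and a real difference in fibroblast number cannot be told apart here from a difference between pools.

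Genes were then compared between the genotypes within fibroblast nuclei. Of 3174 genes, 94 (2.96%) were at least 2-fold higher and 66 (2.08%) at least 2-fold lower in HIF-1α KO, together 160 (5.04%), and the median log2 ratio over all genes was 0.08. A gene whose UMIs sat in 1 nucleus could pass 2-fold alone. Without the top nucleus of each gene in each library, 60 of the 94 (1.89% of all genes) and 64 of the 66 (2.02%) stayed past 2-fold. The lists below were read against these shares.

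In most lists few genes were past 2-fold. Of 20 inflammatory fibroblast genes with enough UMIs, 0 were 2-fold higher and 5 were 2-fold lower in HIF-1α KO, against 2.08% lower among all genes, and the list median was -0.44 against 0.08. None of the 16 collagens passed 2-fold either way (median -0.19). Of 22 matrix glycoproteins and proteoglycans 1 was higher (Abi3bp) and 1 lower (Fbln1, at -1.16, and at -0.26 after thinning), with a median of -0.14. Of 24 mesenchymal transcription factors 1 was higher and 0 lower (0.07). Of 27 receptors and adhesion genes 2 were higher (Itga9 and Cadm1) and 1 lower (Sdc4, -1.45), with a median of 0.14, and Cadm1, at 1.86, was at -2.92 without mixed nuclei. Of 4 Wnt genes 1 was higher and 1 lower. The 6 hedgehog response genes (0.20) and the 7 hypoxia response genes (-0.07) held none past 2-fold. No Hox gene reached 50 UMIs, and 1 interferon response gene did.

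**Figure D2:**
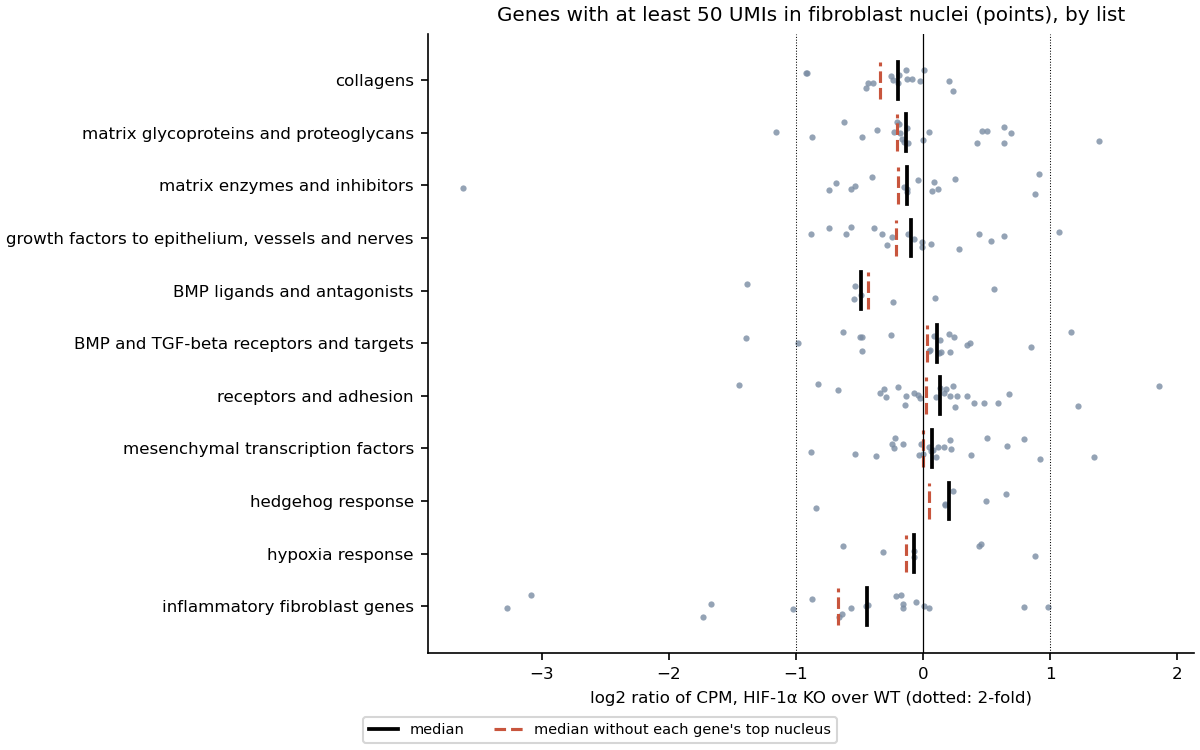
Log2 ratios of CPM, HIF-1α KO over WT, of single genes with at least 50 UMIs (points) for 11 gene lists, with the list median (black bar) and the median without the top nucleus of each gene (red dashed bar). Inflammatory fibroblast genes (median -0.44) and BMP ligands and antagonists (-0.49) lie lowest, and the collagens stay inside the dotted 2-fold lines.

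The inflammatory genes that were lower encode parts of several pathways. Cebpb encodes the transcription factor C/EBPβ, which acts downstream of IL-1 and IL-6, and had 79 UMIs in 30 WT nuclei but 6 UMIs in 6 HIF-1α KO nuclei. Its level was 185 CPM against 21.9 CPM, a log2 ratio of -3.08 (-4.57 to -1.90). The WT signal was not the work of 1 nucleus, since the highest held 12.7% of the UMIs and the ratio without it was -3.15. The other nuclei of the libraries had 31.3 CPM in WT and 8.57 CPM in HIF-1α KO, a log2 ratio of -1.87, so Cebpb was lower outside the fibroblasts as well. C3, the central complement component, had 105 UMIs in 15 WT nuclei against 7 UMIs in 4 HIF-1α KO nuclei, a log2 ratio of -3.27 (-4.62 to -2.18). Of the WT UMIs, 41 and 40 lay in 2 nuclei, so the C3 value rests on these. With each nucleus thinned to 1000 UMIs the ratio was -1.52 for Cebpb and -1.26 for C3, and with a rule of 0.5% of UMIs it was -5.77 for C3. A Cebpb UMI was found in 19.9% and 9.38% of fibroblast nuclei against 6.66% and 3.58% of other nuclei.

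The remaining 3 genes had ratios nearer to 0. Ptgs2 encodes the inducible cyclooxygenase COX-2 of prostaglandin synthesis and stood at 221 CPM in 19 WT nuclei against 69.2 CPM in 6 HIF-1α KO nuclei, a log2 ratio of -1.67 (-2.47 to -0.95), with 46.8% and 57.9% of its UMIs in the top nucleus of each library. Il1rl1, the receptor chain for IL-33, stood at 157 CPM in 17 nuclei against 47.4 CPM in 5 nuclei (-1.73, from -2.71 to -0.86). Il6st, the shared signal chain gp130 of the IL-6 family, stood at 244 against 120 CPM (-1.02, from -1.63 to -0.44) and was within 2-fold without its top nuclei (-0.99) and after thinning (-0.90). Thinning gave -2.57 for Ptgs2 and -3.46 for Il1rl1. These 2 values rest on very few HIF-1α KO UMIs and have no interval, so they do not show a larger difference. The other nuclei of the libraries gave -1.84 for Ptgs2, -1.86 for C3, -1.17 for Il1rl1 and -0.55 for Il6st, all in the same direction. All 15 leading genes outside the rule were lower there too, from -0.85 for Gpm6b to -1.86 for Bmp4. This direction in the other nuclei is therefore not particular to inflammatory genes, and its cause was not tested. Stat3 and Nfkb1 were at 0.21 and 0.26 there. Signal transducers of the list were close to equal, with Stat3 at -0.17 (-0.60 to 0.25) and Nfkb1 at -0.06 (-0.49 to 0.37), and the IL-1 receptor gene Il1r1 at -0.44 (-0.73 to -0.15). Saa1, an acute-phase gene, was at 0.99 (0.36 to 1.62) and Ptgs1, which encodes cyclooxygenase COX-1, at 0.80 (0.09 to 1.51), in the other direction.

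Promoter sequence of these genes is shown because Cebpb encodes a DNA-binding factor and was among the lower genes. In the RefSeq promoters of build GRCm38.p6, the 250 bases before the start sites of Cebpb, C3, Ptgs2, Il1rl1, Il6st and Mmp13 were searched on both strands for TGANTCA (AP-1), TTGCNNAA (C/EBP) and an NF-κB consensus. The C/EBP letters were in front of C3, Ptgs2 and 1 of the 2 Il1rl1 start sites, the AP-1 letters in front of Mmp13, and the NF-κB consensus in front of none of the 6. In Ptgs2 the letters read as a match on both strands. Over all 32851 promoters, 9.56% held the C/EBP letters, 6.75% the AP-1 letters and 0.356% the NF-κB letters. The NF-κB letters are so rare that their absence in front of 6 genes tells nothing about that factor. The matched letters are in capitals in these 30-base windows, read on the strand of the gene, with C3 on the minus strand at chr17:57228163-57228192, Ptgs2 on the plus strand at chr1:150099951-150099980, Il1rl1 on the plus strand at chr1:40429525-40429554 and Mmp13 on the plus strand at chr9:7272468-7272497.
C3: aggaaactatgTTGCGAAAttttgggcagt
Ptgs2: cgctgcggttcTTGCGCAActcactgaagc
Il1rl1: ggcaactgtatTTGCATAAaactattagag
Mmp13: ccccaaagtggTGACTCAtcactatcatgc
The matches begin 45 bases before the start site in C3, 69 in Ptgs2, 34 in Il1rl1 and 35 in Mmp13. A match of letters is a description and no sign that a factor was bound, and the absence of the letters in front of Cebpb and Il6st holds for these windows only.

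Among matrix genes, the fibrillar collagen genes Col5a2 (0.24, from 0.02 to 0.46), Col1a2 (-0.19, from -0.47 to 0.08) and Col5a1 (-0.20, from -0.54 to 0.13) and the basement membrane gene Col4a1 (-0.14, from -0.48 to 0.20) had ratios close to 0. Col3a1, a rule gene and so given as a description only, stood at 1335 CPM in WT and 1563 CPM in HIF-1α KO (0.23). Col18a1 was at -0.92 (-1.41 to -0.45). Col1a1 was lower in HIF-1α KO at 244 against 460 CPM (-0.91, from -1.34 to -0.51). Its thinned ratio was -0.50. Abi3bp, which encodes a matrix-bound adhesion protein, was the 1 glycoprotein gene past 2-fold upward. It had 164 UMIs in 63 of 151 WT nuclei and 276 UMIs in 42 of 64 HIF-1α KO nuclei, or 385 and 1006 CPM, a log2 ratio of 1.39 (1.10 to 1.67). Over 10 alternatives it stayed between 1.28 and 1.82. In the other nuclei Abi3bp was lower in HIF-1α KO (45.0 and 24.8 CPM, a log2 ratio of -0.86). So were Col5a2 (-1.33), Col1a2 (-1.48), Col5a1 (-1.52) and Col4a1 (-1.40), and that fall is not particular to Abi3bp. Svep1, a large adhesion protein of the matrix, was higher at 827 against 530 CPM (0.64, from 0.37 to 0.91), as was its receptor chain Itga9 at 186 against 79.8 CPM (1.22, from 0.57 to 1.89), with 0.93 for Itga9 when each nucleus counted equally.

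Of the matrix enzymes, 1 of 16 passed 2-fold. Mmp13, a collagenase, had 191 UMIs in WT and 10 in HIF-1α KO, a log2 ratio of -3.62 (-4.70 to -2.71). The WT UMIs lay in 5 nuclei, 162 of the 191 in a single one, and those of HIF-1α KO in 2 nuclei. Its value is that of a few nuclei and not of the fibroblasts at large. Adamdec1 (-0.04, in 60 and 36 nuclei) and Adamts12 (0.12, in 55 and 25 nuclei) were near equal and widely spread. The protease inhibitor Timp3 was at -0.15, and at -1.16 after thinning.

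The study reports a set of myofibroblast signature genes as increased in the mesenchymal cells of KO colon, which include smooth muscle cells. These genes belong to a marker list for which it cites earlier work. They were also read in the fibroblast nuclei. The nuclei come from the same libraries, so the count of these genes is no independent evidence of a direction. Of the 5 signature genes with enough UMIs, 0 passed 2-fold. Fn1, which encodes fibronectin, stood at 317 CPM in WT and 448 CPM in HIF-1α KO (0.50, from 0.14 to 0.86), and Postn, which encodes periostin, at 225 and 350 CPM (0.63, from 0.21 to 1.06). Lamb1 was at -0.13 (-0.46 to 0.20), Col1a1 at -0.91 as given above, and the elastin gene Eln at 0.47, with 55.4% of its HIF-1α KO UMIs in 1 nucleus and -0.48 without its top nuclei. The list median was 0.47 and turned to -0.18 without the top nuclei. Of the contractile genes outside the rule, Cald1 was at 0.36 (0.12 to 0.59) and the tropomyosin gene Tpm1 at -1.16 (-1.72 to -0.62). Tpm1 was at -0.42 after thinning, and 47.7% and 35.9% of fibroblast nuclei against 35.2% and 36.6% of other nuclei held a UMI of it, so much of its signal was at the level of the rest.

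Signals from fibroblasts to their neighbors were led by Nrg1, the ERBB ligand, which had 2732 UMIs in 121 WT nuclei and 1343 UMIs in 52 HIF-1α KO nuclei. Its level was 6410 against 4893 CPM, a log2 ratio of -0.39 (-0.48 to -0.29), and stayed between -0.55 and -0.20 over 10 alternatives. Nrg1 was uneven among nuclei, with 19.7% and 28.1% of its UMIs in the top nucleus of each library. Slit3, a guidance ligand, stood at 1530 against 831 CPM (-0.88, from -1.10 to -0.66). The growth factors Hgf (-0.01, from -0.39 to 0.36) and Fgf7 (-0.07, from -0.46 to 0.31) did not differ beyond counting error, but 65.6% of the HIF-1α KO Fgf7 UMIs were in 1 nucleus, without which the ratio was -1.33. Angpt1, the Tie2 ligand that acts on vessels, was higher in HIF-1α KO at 434 against 206 CPM (1.07, from 0.66 to 1.48), with 52.9% of those UMIs in 1 nucleus and 0.71 without the top nuclei and 0.29 after thinning.

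BMP genes did not move as a block. Bmp5, a rule gene and therefore given as a description, stood at 1042 CPM in WT and 1519 CPM in HIF-1α KO (0.54). Bmp4 stood at 359 against 248 CPM (-0.53, from -0.97 to -0.11) and Bmp6 at 307 against 328 CPM (0.09, from -0.31 to 0.49). Bmp2 had 65 UMIs in 30 WT nuclei and 16 UMIs in 10 HIF-1α KO nuclei (-1.39, from -2.28 to -0.58), the 1 gene of 7 past 2-fold, and was at -0.20 after thinning. The median of these 7 BMP ligands and antagonists, among which Bmp5 is not counted, was -0.49. On the receiving side, Tgfbr3, the co-receptor betaglycan, was the list's gene with the most UMIs and was lower at 408 against 575 CPM (-0.49, from -0.83 to -0.17), with -0.01 after thinning and -0.03 without mixed nuclei. Tgfbr1 was at -0.98 (-1.63 to -0.37). Bmpr2 (0.21), Acvr1 (0.34), Tgfbr2 (0.13) and Smad3 (0.06) had intervals that held 0. Inhba, which encodes the activin A subunit, was lower at 51.0 against 134 CPM (-1.39, from -2.35 to -0.53) and sat in 15 and 5 nuclei. Smad7, an inhibitor of TGF-β signaling, was higher (1.16), but was found in 13.9% and 31.2% of fibroblast nuclei against 20.4% and 40.6% of other nuclei. Its ratio ranged from 1.03 to 1.34 over the alternatives and was 0.73 in the other nuclei, with 1.34 when the free RNA estimate was taken off.

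Among Wnt genes, Wnt5a, a ligand of subepithelial fibroblasts, was lower in HIF-1α KO at 120 against 270 CPM (-1.17, from -1.77 to -0.60). The share of nuclei with a Wnt5a UMI was 26.5% and 26.6%, against 1.61% and 0.496% of other nuclei, which differ little between the libraries although their depths differ. Its ratio was -0.88 when each nucleus counted equally. Wnt5b (0.61, from 0.04 to 1.18) and the secretion factor Wls (0.40, from 0.01 to 0.79) went the other way by less than 2-fold, and Wnt5b was at -0.05 after thinning. Dkk3, a secreted Dickkopf family member, had 26 UMIs in 16 WT nuclei and 36 UMIs in 23 HIF-1α KO nuclei (1.10, from 0.34 to 1.89). Of the hedgehog genes, the receptor and target gene Ptch1 was higher at 1381 against 880 CPM (0.65, from 0.44 to 0.86), and Gli2 (0.24) and Gli3 (0.17) had intervals that held 0.

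Transcription factors of the mesenchyme had a list median close to that of all genes. Tcf4 (-0.04, from -0.18 to 0.11) and Nfia (0.12, from -0.07 to 0.31) were near equal. Zeb2 (0.51, from 0.34 to 0.68) and Sox5 (0.38, from 0.19 to 0.57) were higher in HIF-1α KO. Sox6, a factor of subepithelial fibroblasts, was lower at 594 against 1093 CPM (-0.88, from -1.15 to -0.62), whereas the other nuclei gave 74.9 against 71.7 CPM. The other nuclei were lower in HIF-1α KO for Nrg1 (-0.72), Slit3 (-1.81), Bmp4 (-1.86), Tgfbr3 (-1.67), Inhba (-1.45) and Wnt5a (-2.53), while Bmp2 was at 0.20. For those lower in both, the direction is not particular to fibroblast nuclei, and its cause was not tested. Creb5 was the 1 factor of 24 past 2-fold (1.34), with 40.8% of its HIF-1α KO UMIs in 1 nucleus and 0.74 without the top nuclei. Of the hypoxia response genes, P4ha1, which encodes a prolyl hydroxylase of collagen, stood at 75.1 CPM in WT and 138 CPM in HIF-1α KO (0.88, from 0.17 to 1.61) and ranged from 0.65 to 1.07 over the alternatives, while Epas1 (0.46), Arnt (-0.32), Vegfa (0.44) and Kdm3a (-0.07, and -0.96 after thinning) had intervals that held 0.

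**Figure D3:**
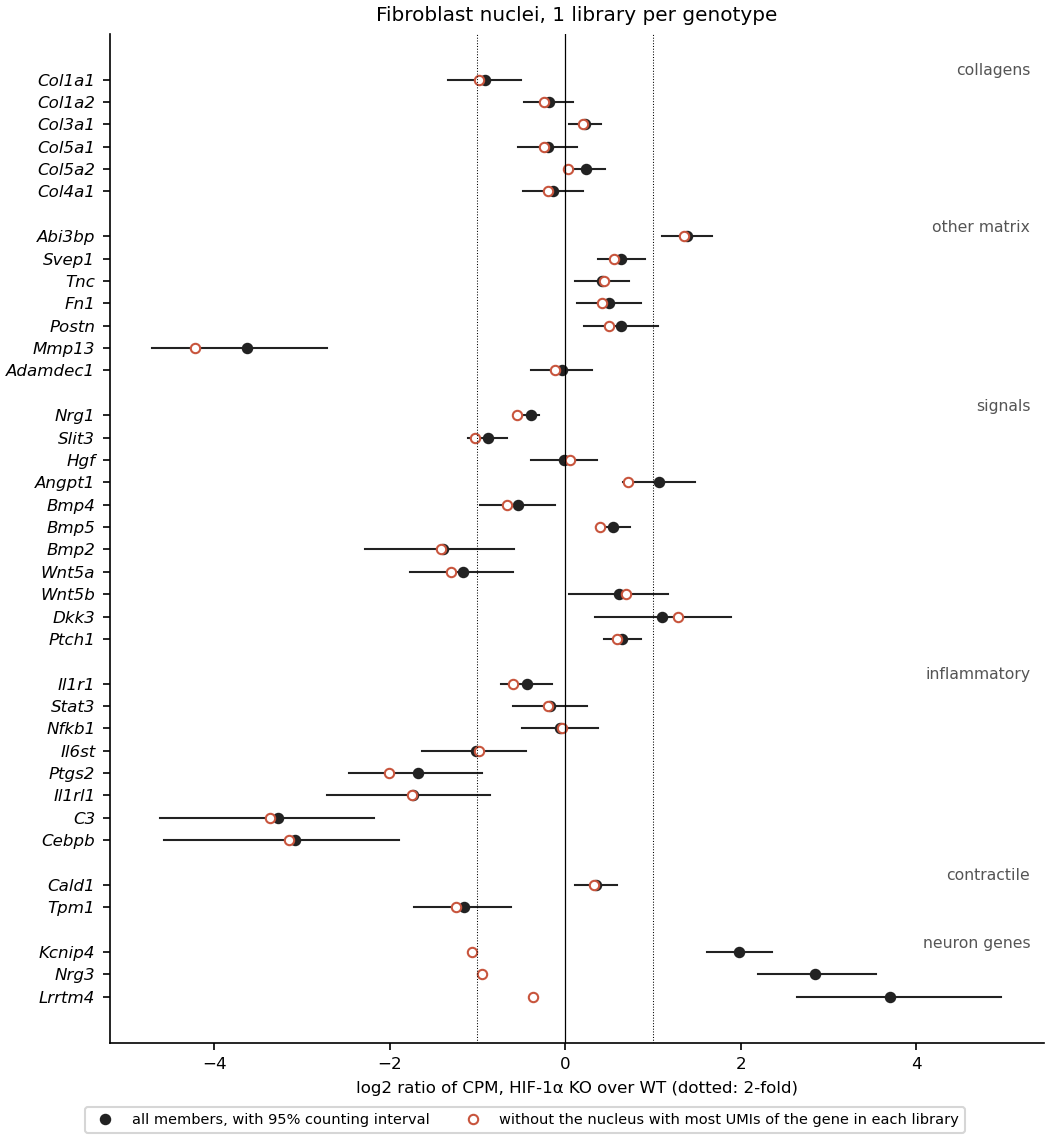
Log2 ratios of CPM, HIF-1α KO over WT, for named genes by role, with 95% counting intervals (black points and lines) and the ratio without the nucleus with the most UMIs of that gene in each library (open red points). Cebpb and Abi3bp keep their place without the top nucleus, C3 does so with a second nucleus nearly as high as the first, while the 3 neuron genes at the bottom move from the right of 0 to its left.

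The 10 lowest ratios of all 3174 genes were those of Sv2b (-3.73), Mmp13, C3, Cebpb, Cavin1 (-2.25), Fut2 (-2.08), Gpx3 (-1.92), Nkain2 (-1.81), Unc5c (-1.81) and Sec23ip (-1.79). Sv2b encodes a vesicle protein and had 62 UMIs in 24 WT nuclei against 3 UMIs in 2 HIF-1α KO nuclei, with no nucleus above 19.4% of the WT UMIs. Cavin1, a coat protein of caveolae, had 81 UMIs in 32 WT nuclei against 11 UMIs in 10 HIF-1α KO nuclei. In the other nuclei the ratio was -1.73 for Sv2b and -2.12 for Cavin1, and the leading fibroblast genes were lower there as well. Nkain2 was carried by 1 nucleus with 69.0% of its WT UMIs. Fut2, an epithelial fucosyltransferase, turned to 0.12 after thinning.

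The highest ratios rested largely on single nuclei. A HIF-1α KO member with 12970 UMIs, 4.73% of all UMIs of that group, held 265 UMIs of the enteric neuron list and 7 of its 8 genes, while the next member held 30. It met the rule with 41 UMIs on 4 rule genes. Lrrtm4 (3.70), Syn3 (3.07), Nrg3 (2.84), Fgf13 (2.83) and Adgrb3 (2.60), all known from neurons, and the potassium channel partner Kcnip4 (1.98) had between 80.0% and 95.5% of their HIF-1α KO UMIs in 1 nucleus. Without the top nuclei Nrg3 was at -0.95, Kcnip4 at -1.06 and Lrrtm4 at -0.37. Khdrbs2 (5.35) had 98 of its 105 HIF-1α KO UMIs in 1 nucleus and Sorcs1 (2.62) had 82.6%. Fam155a (2.62) and Spock3 (2.86) were less concentrated, with 313 UMIs in 20 nuclei and 70 UMIs in 13 nuclei, and were at 2.27 and 1.91 without the top nuclei. Spock3 was at 0.24 after thinning.

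**Figure D4:**
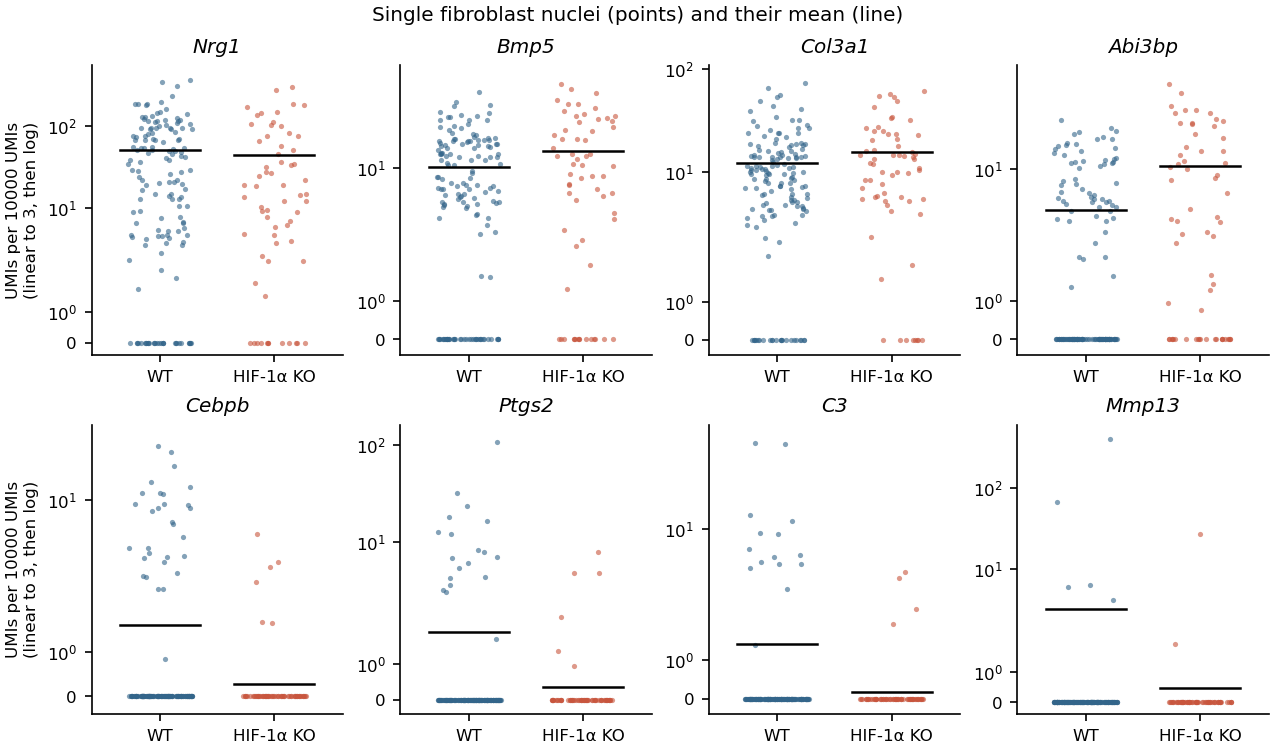
UMIs per 10000 UMIs in each of 151 WT and 64 HIF-1α KO fibroblast nuclei (points; the axis is linear up to 3 and logarithmic above) with the mean per library (black line) for 8 genes. Nrg1, Bmp5 and Col3a1 are found in most nuclei of both libraries. Cebpb is found in 30 nuclei of WT and 6 of HIF-1α KO, and 1 point holds 162 of the 191 WT UMIs of Mmp13.

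The fibroblast nuclei varied among themselves in lists that stand for tissue position. Clustering on 2000 variable genes, scaled within each library, gave 4 clusters of 62, 57, 77 and 19 nuclei. They are called by number and described by their leading genes. Their leading genes and list levels come from the same UMIs that formed them and are a description. The numbers of nuclei per library (43 and 19, 38 and 19, 56 and 21, 14 and 5 for WT and HIF-1α KO) are not compared, as the scaling within libraries draws the shares together and genes that define clusters differed between libraries.

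The leading genes of cluster 1 included Frmpd4, Edil3, Kcnq3 and Ncam2, of which Kcnq3 had 93.5% of its UMIs there in 1 nucleus. Of its 62 nuclei 20 were mixed. The enteric neuron list had 302 UMIs in this cluster, and 265 of them lay in the neuron-rich HIF-1α KO nucleus described above. Edil3, an integrin-binding matrix protein, was at 850 CPM in 47 of the 62 nuclei against 21.7 CPM in the other fibroblasts. The lamina propria list reached 3205 CPM here against 564 to 1201 CPM in the other clusters, with 7 of its 10 genes at least 2-fold above the other members. The adventitial and trophocyte list was at 690 CPM here, against 774, 164 and 472 CPM in clusters 2, 3 and 4. In cluster 1, 4 of its 12 genes (Grem1, Clec3b, Dpt and Sfrp1) were at least 2-fold above the other members. The lists thus do not place cluster 1 at 1 position. Cluster 1 also held the highest level of Abi3bp (1198 CPM) and the BMP antagonist Grem1 (130 CPM).

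Cluster 3 carried the subepithelial list at 11258 CPM against 1634 and 2461 CPM in clusters 1 and 2. Nrg1 gave most UMIs of the list in this cluster. Of its 12 genes, 3 (Sox6, Bmp7 and Ednrb) were at least 2-fold above the other members. Its leading genes were Ptprr, the basement membrane collagens Col4a6 and Col4a5, Sv2b and Glp2r, the receptor for the gut hormone GLP-2. Of the subepithelial genes, Sox6 stood at 2110 CPM in 62 of the 77 nuclei, and Bmp5 was highest here at 2294 CPM. Only 5 of the 77 nuclei were mixed. Within this cluster, Sv2b had 60 UMIs in WT and 1 in HIF-1α KO, although both libraries gave nuclei to it.

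Cluster 4 was the smallest and the highest in both the subepithelial list (20071 CPM) and the inflammatory list (7014 CPM against 3682 to 4207 CPM elsewhere). It was led by Mmp13, Khdrbs2, Cemip, Csgalnact1 and Inhba, and 8 inflammatory genes were at least 2-fold above the other members: Il11, Il1rl1, Saa3, Ptgs2, Ptges, Nfkbia, Socs3 and Cebpb. Nrg1 reached 19001 CPM here and the matrix glycoprotein gene Tnc 1875 CPM. Nrg1 gave most of the subepithelial list in these 19 nuclei, and Sox6, high in cluster 3, was at 13.9 CPM. All Khdrbs2 UMIs of the cluster (98) lay in 1 nucleus. The genes that were lower in HIF-1α KO overall lay in part here: 62 of 94 WT Ptgs2 UMIs came from 4 of its WT nuclei (44 of them from 1), 54 of 67 Il1rl1 UMIs from 7 (20 from 1) and 189 of 191 Mmp13 UMIs from 3 (162 from 1), while the HIF-1α KO nuclei of the cluster gave 12, 5 and 9. Cebpb, in contrast, had WT UMIs in every cluster (21, 25, 12 and 21) and between 1 and 2 HIF-1α KO UMIs in each.

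Cluster 2 was the least distinct. Of its 57 nuclei 38 were mixed, the smooth muscle list was at 2477 CPM, the epithelial list at 4422 CPM and the mesothelial gene Wt1 among its leading genes beside Dnajc6, Cr2, Enpp2 and Gpm6a. Several of these sat in few nuclei, with 76 of 102 Cr2 UMIs in 1. C3 had 90 of its 105 WT UMIs here, in 7 nuclei, so the C3 difference between the libraries concerned few nuclei of the least distinct cluster.

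**Figure D5:**
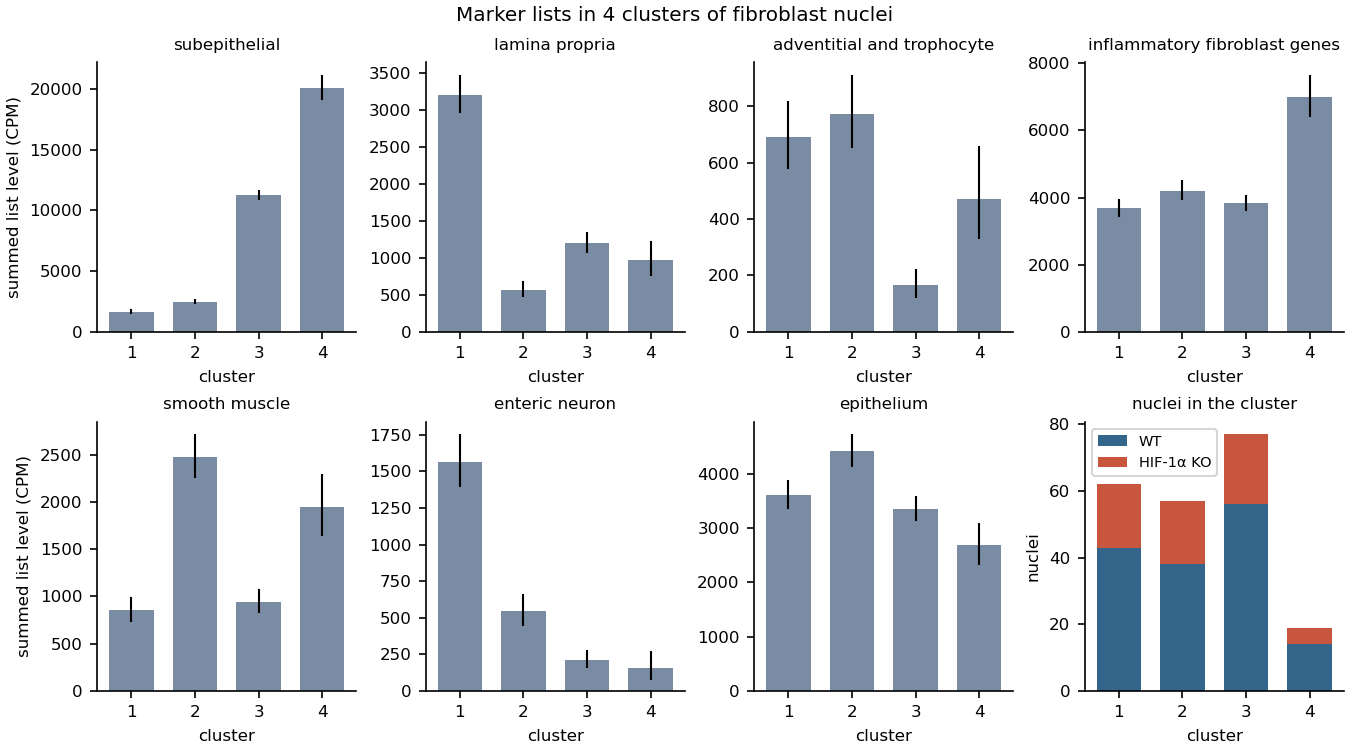
Summed levels in CPM of 7 gene lists (bars, with exact 95% Poisson intervals) in the 4 clusters of fibroblast nuclei, and the number of nuclei in each cluster by library. The lamina propria list is highest in cluster 1 (3205 CPM), and the subepithelial (20071 CPM) and inflammatory (7014 CPM) lists are highest in cluster 4. The enteric neuron list of cluster 1 rests largely on 1 HIF-1α KO nucleus, with 265 of 302 UMIs.

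Position lists were also compared without clusters. Nuclei with more UMIs of the subepithelial than of the adventitial and trophocyte list were 116 of 151 in WT (76.8%, from 69.3 to 83.3) and 53 of 64 in HIF-1α KO (82.8%, from 71.3 to 91.1). The reverse held for 23 (15.2%, from 9.91 to 22.0) and 8 (12.5%, from 5.55 to 23.2) nuclei, and 28 and 10 nuclei lay within 1 UMI of a tie. The intervals overlap, and after thinning to 1000 UMIs the subepithelial shares were 72.8% and 75%. This is a range of list levels and no cell type, and it gave no difference in position between the libraries that was larger than counting error. The summed levels did differ, with the subepithelial list at 8038 CPM in WT and 5844 CPM in HIF-1α KO and the adventitial and trophocyte list at 650 and 273 CPM. Nrg1 gave 2732 of 3426 UMIs of the first list in WT and 1343 of 1604 in HIF-1α KO, and C3 gave 105 of 277 and 7 of 75 of the second.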

How the data were processed

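Nuclei from frozen colon were profiled with a droplet 3′ kit, 1 library of 3 pooled animals per genotype. The authors made the deposited matrices with Cell Ranger 7.0.1 on mm10, and they hold raw UMI counts per gene and barcode, with nothing normalized. The 9668 barcodes in the files equal the number of nuclei the study states, and 9586 passed the filter. UMI counts were summed over member nuclei per library and divided by the total (CPM). Ratios have exact conditional intervals, sums exact Poisson intervals and shares Clopper-Pearson intervals, all at 95%, and a count of 0 allows 3 UMIs. Low genes (under 50 UMIs over both libraries together) were left out of counts. Ratios to other nuclei added 10 CPM to both sides. Clusters came from scanpy 1.11.5 (15 principal components, 15 neighbors, resolution 0.5). TMM factors (edgeR 4.0.16) and size factors (DESeq2 1.42.0) served as scaling alternatives only. The ratio code was tested on simulated data. Genes named were the rule genes, up to 6 members of each list with the most UMIs plus those past 2-fold with separate intervals, the 10 highest and 10 lowest ratios, 15 leading genes and 5 leading genes per cluster. Genes that this rule names but the text leaves out are not reported here. Others were named after their values were seen. Promoters came from RefSeq on GRCm38.p6. The members and lists were chosen with earlier results of these data known.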

Additional observations from a re-analysis of the deposited data

How the results depend on the processing

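The ratio of the shares of fibroblast nuclei stayed between -1.20 and -1.03 over 7 alternatives and was -0.33 of fibroblast and smooth muscle nuclei. The number of genes at least 2-fold higher and lower was 249 and 259 with nuclei thinned to 1000 UMIs, 185 and 423 with free RNA taken off, 346 and 302 from 20 UMIs, 9 and 7 from 200 UMIs and 1636 and 1143 from 1 UMI in each library. Without the top nucleus of each gene 111 genes were lower. TMM and DESeq2 factors moved all log2 ratios by -0.10 and -0.09. Clusters numbered 7 at resolution 1, 3 at resolution 0.3, 5 without scaling within libraries and 2 after thinning. With that scaling left out, 17 of the 19 nuclei of cluster 4 fell in a cluster of 56 nuclei. At resolution 0.3, 62 nuclei of cluster 1 and 55 of cluster 2 fell in the same cluster of 119. The 4 clusters therefore depend on depth, resolution and scaling. Without mixed members 85.0% of WT nuclei were on the subepithelial side. The cause of these shifts was not tested beyond the construction of each alternative.

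Of 164 genes followed through the alternatives, 9 reversed in some. Without mixed members the log2 ratio was -2.92 for Cadm1, -0.92 for Kcnip4, -1.54 for Syt1, -1.54 for Adgrb3, -0.80 for Fgf13, -1.80 for Nrg3, -0.39 for Syn3 and -1.80 for Lrrtm4. With markers at 0.5% of UMIs it was -3.17 for Cadm1, -0.91 for Kcnip4, -1.72 for Syt1, -1.58 for Adgrb3, -0.85 for Fgf13, -1.19 for Nrg3, -0.26 for Syn3 and -2.07 for Lrrtm4. With 5 markers it was -0.79 for Kcnip4, -3.20 for Syt1, -0.24 for Fgf13, -1.07 for Nrg3 and -1.97 for Lrrtm4. Without the top nucleus it was -1.06 for Kcnip4, -1.69 for Adgrb3, -0.46 for Fgf13, -0.95 for Nrg3 and -0.37 for Lrrtm4. Without the neuron-rich nucleus it was -1.11 for Kcnip4, -1.75 for Adgrb3, -0.58 for Fgf13, -1.07 for Nrg3 and -0.71 for Lrrtm4. After thinning it was 0.12 for Fut2 and -0.084 for Adgrb3. The median of the inflammatory list kept its sign over all alternatives (-0.67 to -0.30). The median of the collagens ranged from -0.34 to 0.00.

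No paired analysis was possible because each genotype has 1 library. At this depth, genes under 50 UMIs could not be described, and with 103 UMIs the interval of Vegfa ran from -0.15 to 1.02. Thinned ratios of single genes rest on fewer UMIs still and are given without intervals. The alternatives without single nuclei and the share of fibroblast and smooth muscle nuclei were chosen after seeing the data.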
